A study of Mus musculus with 12 samples.

Results

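Mitochondrial ribosomal protein genes were followed in mouse splenic B cells at rest and after 3 h of activation. The set held every protein-coding gene whose symbol is Mrpl or Mrps followed by a digit in the mm9 gene annotation, which gave 77 of the 37991 genes in the count table. By the position of the protein, 49 of them belong to the large ribosomal subunit and 26 to the small subunit. The remaining 2, Mrps36 and its copy Mrps36-ps1, carry a ribosomal name but code for a part of the oxoglutarate dehydrogenase complex. Of the 77 genes, 75 had enough reads to be tested, among 13538 genes tested in all.

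The RNA came from B cells purified from spleens of 8-week-old mice, in 4 groups of 3 biological replicates (12 samples). Cre-only mice carried the CD23-iCre transgene alone, and Runx1 c-k/o mice carried the same transgene with floxed Runx1 alleles (Runx1 fl/fl), so that Cre was present in the control cells too. Cells of each genotype were taken at 0 h, without stimulation, or after 3 h with anti-IgM, which engages the BCR, and IL-4. None of the 4 groups was kept for 3 h without stimulation, so that activation and time in culture cannot be told apart. CD23-Cre is first expressed at the transitional stage, so that RUNX1, a transcription factor of blood cells, is lost only late in B cell development and earlier stages keep it. The cells were purified by removal of non-B cells and of CD43+ activated B cells, which is an enrichment and not a sort. Nothing in the sources used here ties a sample to one mouse, so that the p-values below measure the spread between these samples.

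The mitochondrial ribosome is the machine inside mitochondria that translates the few mRNAs of mitochondrial DNA, all of which code for membrane subunits of the respiratory chain and the ATP synthase. Its rRNAs come from mitochondrial DNA, whereas every one of its proteins is encoded in the nucleus, made by cytosolic ribosomes and imported. Some of these proteins have counterparts in bacterial ribosomes, and others are found in mitochondria alone. Resting lymphocytes are small cells with little cytoplasm, and activation through the antigen receptor starts cell growth before the first division.

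Library totals ranged from 14442251 to 23641552 counts, and a floor of 3 counts stood for 0.127 to 0.208 CPM (counts divided by the size of the library) in single samples, which covers counting error alone. Runx1 itself gave 81.8 to 86.7 normalized CPM in Cre-only cells before activation and 95.7 to 103 in those of Runx1 c-k/o mice. At 3 h it gave 34.9 to 38.5 and 47.3 to 74.5, respectively. A count over the whole gene holds reads from exons that a floxed allele leaves in place, so it does not check the deletion, and the samples are named by their labels. Of the B cell markers, Cd79a, Cd79b, Ms4a1 and Pax5 were called lower on activation in both genotypes, Cr2 was called higher in both and Fcer2a in neither. In Cre-only cells Cd79a went from 2077 to 349 normalized CPM (log2 fold change -2.57), Ms4a1 from 1255 to 434 (-1.53), Cr2 from 945 to 2021 (1.10), and Fcer2a had 1097 and 1116. The 6 T cell markers summed to at most 6.22 CPM and the 3 NK cell markers to at most 2.60 CPM, and each of these genes but Cd8a was at 0 in at least 1 sample. All 5 macrophage and monocyte markers were called lower on activation in both genotypes, from a sum of 210 to 417 CPM at rest to 17.5 to 46.4 CPM at 3 h. Both platelet markers (summed 4.33 to 5.64 CPM at rest and 0.734 to 1.16 at 3 h) and the plasma cell markers Sdc1 and Prdm1 were also called lower in both genotypes, as was Cd4. The NK cell marker Klrb1c was called lower in Cre-only cells, and Nkg7 in Runx1 c-k/o cells. Igj, another plasma cell marker, was called in neither genotype. Between genotypes Sdc1 was lower in resting Runx1 c-k/o cells (log2 fold change -1.35, adjusted p = 0.00157, edgeR). The other plasma cell markers were not called there. Prdm1 gave -0.23 (adjusted p = 0.66, edgeR), and Igj went the other way (0.45, adjusted p = 0.71, edgeR). The erythroid markers summed to 11.6 to 385 CPM and the granulocyte markers to 0.131 to 3.47 CPM. In bulk RNA, fewer cells of a type and less RNA per cell cannot be told apart, and the part of these cells in the results below was not tested.

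A pair of Runx1 c-k/o samples stood apart in the genes described here. Resting Runx1 c-k/o replicate 2 had the highest value of its group for 73 of the 75 tested genes, and 3-h Runx1 c-k/o replicate 1 had it for 75 of 75. No Cre-only sample was highest in its group for more than 34 of the 75. The same pair had the highest sums of cytosolic ribosomal protein mRNAs in their groups (89220 and 112000 normalized CPM, against 63480 to 69160 in the other Runx1 c-k/o samples) and of nuclear oxidative phosphorylation mRNAs. Results that rest on these samples are therefore given with and without them.

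In resting Cre-only cells the 77 genes together gave 1438, 1440 and 1385 normalized CPM, which was 0.147% to 0.153% of all counts in each sample. Levels per kilobase of annotated exon differed widely between genes. The median of the 75 tested genes was 9.68 normalized CPM per kb, with the middle part of the genes between 5.32 and 14.8 (quartiles). Mrpl52, a large subunit protein with no bacterial counterpart, had the highest level (47.0 CPM per kb), followed by Mrps16 (42.8), Mrpl54 (33.8) and Mrpl24 (28.01), a protein beside the exit tunnel. The lowest were Mrps34 (1.16), Mrps6 (1.38), Mrps25 (1.52) and Mrps10 (2.17), all of the small subunit. These values per kb depend on the exon length in the annotation, which counts every annotated isoform. Other genes on the same strand share 37% of the exon bases of Mrps34 and 43.8% of those of Mrps6. On the opposite strand 63.4% are shared for Mrps34, 53.7% for Mrps25 and 26.3% for Mrpl24, and Mrps10 shares none. How reads on shared bases were counted is not given in the sources used here, and its part in these levels was not tested.

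For 2 genes no change could be measured. Mrpl53 had 0 counts in each of the 12 samples, which in single samples allows up to 0.208 CPM by the floor of 3 counts. Of its exon bases, 87.1% are shared on the same strand with Ccdc142, which had 6.63 to 16.7 normalized CPM. The counting of reads that fall on 2 genes is not given in the sources used here, so that the 0 is no sign of absence. Mrps36-ps1, a single-exon copy annotated as protein-coding, had 0 to 5 counts per sample.

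Promoter sequences were compared because the genes moved together on activation. RefSeq windows on GRCm38.p6, reaching from 250 bases before to 50 bases after the annotated start, were at hand for 67 of the 77 genes. The windows of 5 genes are shown to 20 bases after the start, 5′ to 3′ on the strand of the gene: Mrps6, Mrpl17 and Mrpl12 were among the genes that rose most, Mrpl32 holds several of the motifs searched, and Mrps16, shown by the first of its 2 windows, was a gene that did not rise in Cre-only cells. Capitals mark matches, on either strand, to 6 motifs, which are named for NRF1, ETS, E-box, YY1, RUNX and CCAAT and spelled out after the sequences.
Mrps6, chr16:92058086-92058355, plus strand: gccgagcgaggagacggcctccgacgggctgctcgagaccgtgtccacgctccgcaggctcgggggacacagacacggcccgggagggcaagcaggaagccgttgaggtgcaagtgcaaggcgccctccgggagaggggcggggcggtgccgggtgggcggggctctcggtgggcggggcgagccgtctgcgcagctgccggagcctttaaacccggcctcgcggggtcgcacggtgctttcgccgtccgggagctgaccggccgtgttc
Mrpl17, chr7:105811068-105811337, minus strand: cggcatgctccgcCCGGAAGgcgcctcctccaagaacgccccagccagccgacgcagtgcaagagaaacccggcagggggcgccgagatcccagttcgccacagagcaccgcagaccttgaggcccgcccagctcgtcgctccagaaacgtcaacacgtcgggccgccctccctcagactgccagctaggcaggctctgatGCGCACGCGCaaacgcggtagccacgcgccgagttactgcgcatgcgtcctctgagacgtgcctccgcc
Mrpl12, chr11:120484387-120484656, plus strand: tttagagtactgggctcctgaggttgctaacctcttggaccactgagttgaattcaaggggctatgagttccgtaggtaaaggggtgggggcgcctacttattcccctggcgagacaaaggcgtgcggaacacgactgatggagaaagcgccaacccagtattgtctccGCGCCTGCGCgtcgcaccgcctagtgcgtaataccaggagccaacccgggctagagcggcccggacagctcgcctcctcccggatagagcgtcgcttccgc
Mrpl32, chr13:14613018-14613287, minus strand: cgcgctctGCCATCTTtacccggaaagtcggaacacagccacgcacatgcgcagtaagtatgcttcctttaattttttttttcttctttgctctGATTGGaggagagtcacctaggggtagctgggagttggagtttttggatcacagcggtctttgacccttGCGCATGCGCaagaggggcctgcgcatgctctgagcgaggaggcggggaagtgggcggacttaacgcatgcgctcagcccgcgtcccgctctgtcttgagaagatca
Mrps16, chr14:20393471-20393740, minus strand: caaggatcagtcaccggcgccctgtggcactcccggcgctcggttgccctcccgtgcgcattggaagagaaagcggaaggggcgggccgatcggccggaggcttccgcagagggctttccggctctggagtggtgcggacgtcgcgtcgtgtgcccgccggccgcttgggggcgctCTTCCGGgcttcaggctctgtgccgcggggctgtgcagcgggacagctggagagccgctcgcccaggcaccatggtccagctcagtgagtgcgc
The YY1 letters, AAGATGGC, were in the windows of 17.9% of the 67 genes, of 5.39% of the 8817 tested genes that have a window and of 3.19% of all 27025 genes that have one. The ETS letters, CCGGAAG, a core that GABPA (NRF2) binds, were in 35.8%, 20.2% and 9.93%, in the same order. The NRF1 letters are those in capitals near the start of Mrpl17, GCGCACGCGC, with any base as the sixth, and were in 17.9%, 11.5% and 5.19%. The E-box letters CACGTG, which MYC with MAX binds, were in 7.46%, 12.1% and 8.09%. The RUNX letters TGTGGT were in 13.4%, 15.8% and 18.9%, and the CCAAT letters CCAATC in 19.4%, 23.7% and 18.2%. Of the 62 of these genes called higher on activation in Cre-only cells, YY1 was in 19.4%, ETS in 32.3% and NRF1 in 17.7%. E-box was in 6.45%, RUNX in 14.5% and CCAAT in 21%. Among all 3603 tested genes with a window that were so called, the shares were 6.8%, 26.1%, 14%, 14.5%, 14.5% and 24.4%, in this order. No letters of 1 motif are contained in another. Mrps6 held none of the 6 in the window shown. A match is a description of the letters in the window and not of binding.

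After 3 h of activation, the first question of the design, the mRNAs of most mitochondrial ribosomal proteins were higher in Cre-only cells than at rest. Their sum went from 1421 ± 31.4 to 3063 ± 77.04 normalized CPM (SD, n = 3 each), a 2.16-fold difference, with 2976, 3123 and 3091 CPM in the 3 activated samples. Of the 75 tested genes, 68 were higher at an adjusted p under 0.05 and 0 were lower (edgeR quasi-likelihood test, Benjamini-Hochberg over all genes tested), where 38.6% of all genes tested were called higher and 36.4% lower. Without adjustment, p was under 0.05 for the same numbers, 68 higher and 0 lower genes. The share of all genes tested was not counted for the unadjusted p. Adjustment only raises p, so that this share is at least the 38.6% higher and 36.4% lower given above. DESeq2 gave 66 and 0 (35.8% of all genes tested higher). The median log2 fold change was 1.09, against 0.03 over all genes tested. In 72 of the 75 genes every activated sample lay above every resting one, which held for 43.8% of all genes tested, and in 1 every activated sample lay below (40.6% of all). A change of more than 1 on the log2 scale was seen in 40 of the 75, and in 20.6% of all genes tested. With 1 RUVs factor of unwanted variation in the model, 38 were called higher and 6 lower (34.3% and 31% of all genes tested), with a median of 0.35. That factor lay between 0.99 and 1.07 in the resting and between -0.60 and -0.68 in the activated Cre-only samples, so that it took different values in the groups compared. The other values are from the model without it and are shares of the library, and the amount of mRNA per cell was not measured here.

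**Figure D1:**
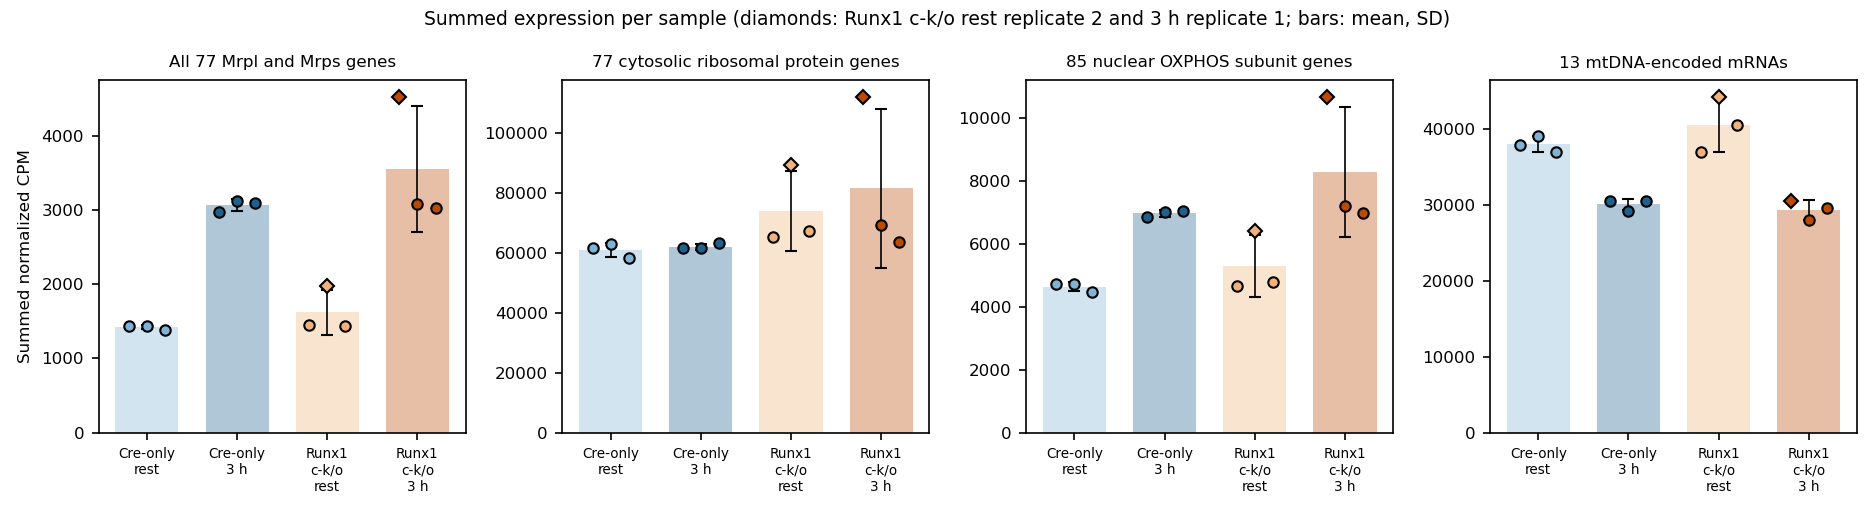
Summed normalized CPM (vertical axes, from 0) of the 77 mitochondrial ribosomal protein genes, 77 cytosolic ribosomal protein genes, 85 nuclear oxidative phosphorylation genes and 13 mRNAs of mitochondrial DNA in each of the 12 samples. Points are samples, bars are group means with SD, and diamonds mark the pair of Runx1 c-k/o samples that stood apart. The 3 activated Cre-only samples lie between 2976 and 3123 in the first panel, and the resting ones between 1385 and 1440.

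Counts and medians were close in both subunits. By size, 9 of the 75 genes had a log2 fold change under 0.5, 26 between 0.5 and 1, 33 between 1 and 2, and 7 over 2, and the genes lie on 17 chromosomes. Of the 48 tested large subunit genes 45 were called higher (median log2 fold change 1.08), and of the 26 small subunit genes 22 (median 1.11). The ratio of the summed large subunit to the summed small subunit mRNAs stayed between 2.24 and 2.32 in all 12 samples. Genes of the bacterial class, set by symbol number but with Mrps24 and Mrps28 included, were called in 41 of 46 cases (median 1.09). Of the other ones 26 of 28 were called (median 1.04). Mrpl47, which has a bacterial counterpart under another number, stands with the latter.

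Among the large subunit genes, Mrpl17 (mm9, chr7:112955172-112959613, minus strand) changed most. It had 13.7, 13.4 and 14.1 normalized CPM before activation and 59.0, 66.2 and 68.1 after activation, a log2 fold change of 2.23 ± 0.23 (SE, adjusted p = 2.51e-06, edgeR). Mrpl12 (mm9, chr11:120345927-120350379, plus strand), which with Mrpl10 forms the stalk that recruits translation factors, had 19.2, 19.9 and 17.04 CPM at rest and 77.8, 82.4 and 82.5 at 3 h. The groups did not overlap in either gene, and Mrpl12 gave a log2 fold change of 2.11 ± 0.27 (adjusted p = 1.63e-05, edgeR). Mrpl10 rose less, from 31.9, 31.8 and 28.3 to 52.0, 50.8 and 50.7 CPM, which was 0.74 on the log2 scale. Mrpl11, at the base of the stalk, rose by 0.73. Mrpl15 (2.08), Mrpl50 (2.05), Mrpl51 (2.03, named after its values were seen), Mrpl47 (1.89) and Mrpl19 (1.85) followed Mrpl17 and Mrpl12, and Mrpl50 had 14.2, 13.8 and 14.7 CPM against 54.9, 64.5 and 57.7. Mrpl2 (1.36) and Mrpl3 (1.07), proteins of the catalytic core, lay nearer the median. So did Mrpl44 (1.32), Mrpl38 (1.34) and Mrpl39 (1.09). Near the exit tunnel, where new chains meet the inner membrane, the log2 fold changes were 1.12 for Mrpl23, 0.67 for Mrpl24 and 0.55 for Mrpl45, which anchors the ribosome to that membrane. Mrpl45 had 27.3, 24.8 and 29.01 CPM at rest and 38.6, 39.5 and 40.3 at 3 h, and Mrpl24 had 62.5, 61.7 and 65.4 against 97.7, 104 and 98.6. The groups did not overlap in these genes either. Mrps18a (0.95) and Mrps30 (0.67), which sit in the large subunit despite their names, were also called.

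In the small subunit, Mrps18b (mm9, chr17:36047324-36053334, minus strand) gave the smallest adjusted p of all 75 genes. Its values were 15.0, 14.9 and 15.6 normalized CPM at rest and 51.8, 51.7 and 50.8 at 3 h, a log2 fold change of 1.76 ± 0.10 (adjusted p = 2.80e-08, edgeR). Mrps2 (mm9, chr2:28323586-28326698, plus strand) went from 18.4, 15.3 and 16.98 to 71.9, 76.3 and 72.0 CPM, a log2 fold change of 2.12 ± 0.14 (adjusted p = 6.96e-08, edgeR). The spread between replicates was small beside either change. Mrps10 (1.77), Mrps22 (1.54) and Mrps5 (1.28) were called higher too. Mrps12, the protein of the decoding centre that guards the accuracy of translation, went from 9.11, 9.74 and 7.93 to 19.7, 23.7 and 21.9 CPM (1.28). Mrps25 rose by 0.66 on the log2 scale. The Mrps18 paralogs, which descend from 1 bacterial protein, gave log2 fold changes of 1.76 for Mrps18b, 0.95 for Mrps18a and 0.37 for Mrps18c (adjusted p = 0.11, edgeR, not called), and the differences between them were not tested. Mrps36, the oxoglutarate dehydrogenase part, had 5.69, 6.83 and 4.15 CPM at rest and 13.4, 13.5 and 13.6 at 3 h (1.27).

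Mrps6 had the largest change of all, from a low level. It gave 2.65, 1.82 and 2.11 normalized CPM at rest and 17.4, 20.4 and 18.5 at 3 h, a log2 fold change of 3.08 ± 0.35 (adjusted p = 5.92e-06, edgeR). Of its exon bases, 43.8% are shared on the same strand with other annotated genes, chiefly Slc5a3, the myo-inositol transporter gene, so that reads there cannot be given to either gene with certainty. Slc5a3 rose as well, from 6.07, 7.29 and 9.11 to 19.1, 19.9 and 19.4 CPM, a log2 fold change of 1.38. Mrps6 lies on chromosome 16 (mm9, chr16:92058515-92112472, plus strand), 489 kb from Runx1.

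A few genes did not follow. Besides Mrps18c, those not called in Cre-only cells were Mrps16, Mrpl4, Mrps35, Mrpl14, Mrpl34 and Mrps34. Mrps16 (mm9, chr14:21210453-21212777, minus strand) had 23.9, 24.7 and 24.1 normalized CPM at rest and 21.6, 21.2 and 22.4 at 3 h. All 3 activated samples were thus below the resting ones, although the log2 fold change of -0.16 ± 0.17 did not pass the test (adjusted p = 0.42, edgeR). It did pass in a fit without the pair of outlying Runx1 c-k/o samples (-0.20, adjusted p = 0.0154, edgeR). That fit redid the filter, the normalization and the shared estimate of the spread. It called 41% of all genes tested lower and 40.7% higher, and 72 of the 75 higher. Mrpl4 (mm9, chr9:20807181-20813279, plus strand), a protein of the exit tunnel wall, had 36.2, 34.7 and 35.5 CPM at rest and 36.9, 35.3 and 33.6 at 3 h, so that the groups overlapped. Its log2 fold change was -0.01 ± 0.13 (adjusted p = 0.97, edgeR). Both were among the 5 most abundant genes per kb at rest. Mrps35, Mrpl14 and Mrpl34 had log2 fold changes of 0.20, 0.46 and 0.50, and are named here after their values were seen. Mrps34 gave 0.77 ± 0.38 at 1.4 to 5.1 CPM, and 37% of its exon bases are shared with Nme3, which was at 0 counts in all 12 samples.

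**Figure D2:**
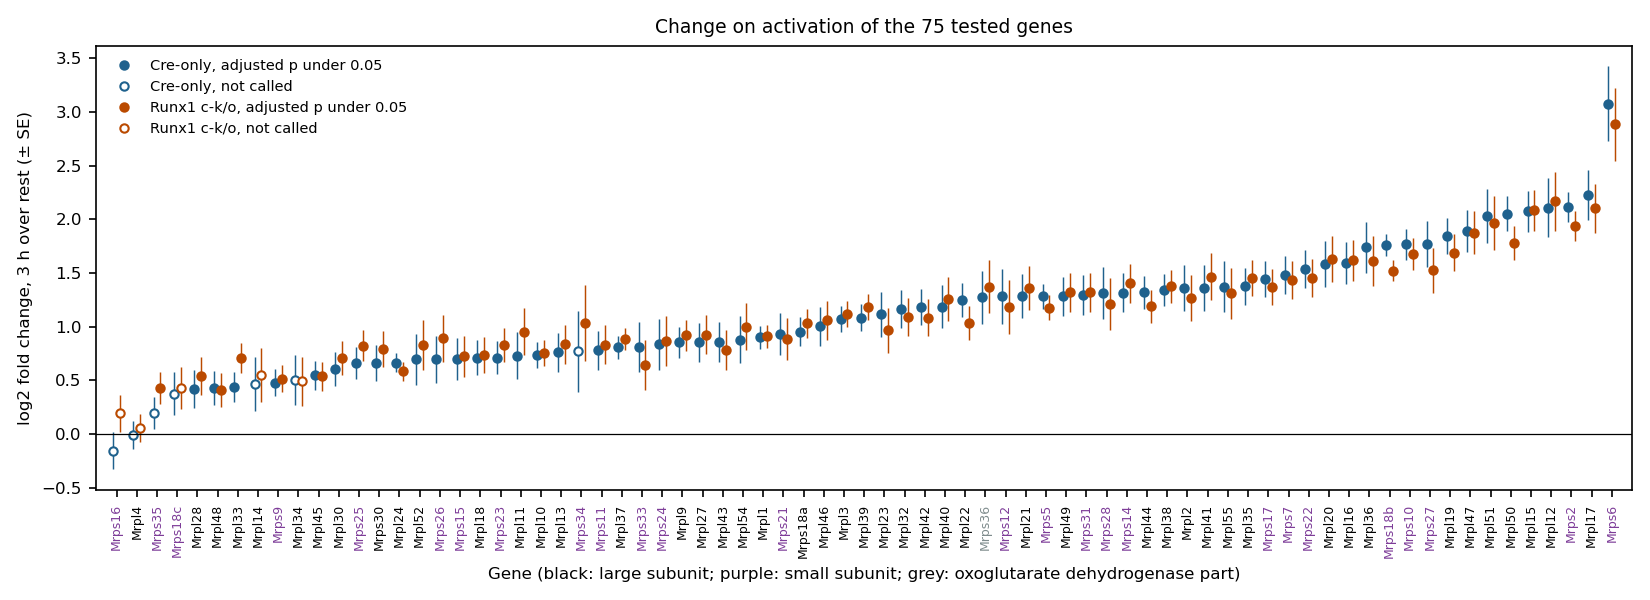
Log2 fold change, 3 h over rest, with its standard error (vertical axis) for the 75 tested genes (horizontal axis), ordered by their value in Cre-only cells. Filled points passed an adjusted p under 0.05. Values in Cre-only cells run from -0.16 for Mrps16 to 3.08 for Mrps6, and the Runx1 c-k/o values lie close to them.

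Genes that were abundant at rest changed less, as a description. Over the 75 genes, the resting level per kb and the log2 fold change had a Spearman correlation of -0.33, where both measures share the resting samples. The median log2 fold change was 1.30 in the 25 genes of lowest resting level, 1.19 in the middle 25 and 0.73 in the highest 25. The spread of the levels among the genes was accordingly narrower after activation: the SD of log2 CPM per kb was 1.14 to 1.16 in Cre-only samples before activation and 1.05 to 1.08 in the activated ones, and 1.13 to 1.16 and 1.05 to 1.09 in the Runx1 c-k/o samples. At 3 h the median was 20.6 CPM per kb, and Mrpl52 was still the highest (76.2) and Mrps34 the lowest (1.99).

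Activation of Runx1 c-k/o cells, in samples that the Cre-only comparison does not use, gave much the same values. The 77 genes summed to 1457, 1974 and 1440 normalized CPM at rest and to 4523, 3082 and 3030 at 3 h, a 2.18-fold difference of the means. The highest of each group was the sample that stood apart, and the other values were close to those of Cre-only cells. Of the 75 genes, 70 were called higher and 0 lower (edgeR), where 37.7% of all genes tested were called higher and 36.6% lower. In 68 of the 75 every activated sample lay above every resting one (36.5% of all genes tested). The median log2 fold change was 1.06, against 0.00 over all genes tested. Without the pair of samples, 72 were called higher (38.6% of all genes tested) with a median of 0.99, and with 1 RUVs factor 36 were called higher and 6 lower (32.6% and 31% of all genes tested) with a median of 0.30. The log2 fold changes of the 75 genes in the 2 genotypes had a Spearman correlation of 0.98 across genes, next to 0.97 across all genes tested, and genes of 1 library are not independent.

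Mrps6 was again first, with 2.28, 5.30 and 2.12 normalized CPM at rest and 35.3, 17.6 and 18.9 at 3 h, a log2 fold change of 2.89 ± 0.34 (adjusted p = 8.40e-06, edgeR). Mrpl12 (2.17), Mrpl17 (2.10), Mrpl15 (2.09), Mrpl51 (1.97) and Mrps2 (1.94) came next. Mrpl4 (0.06), Mrps16 (0.19), Mrps18c (0.43), Mrpl34 (0.49) and Mrpl14 (0.55) did not pass the test. Mrps35 (0.43) and Mrps34 (1.03) passed it here and had not in Cre-only cells, but the difference between the genotypes did not pass for either gene (adjusted p = 0.999 for both, edgeR interaction term). Both lost the call when resting Runx1 c-k/o replicate 1 or 3, or 3-h Runx1 c-k/o replicate 1, was left out.

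**Figure D3:**
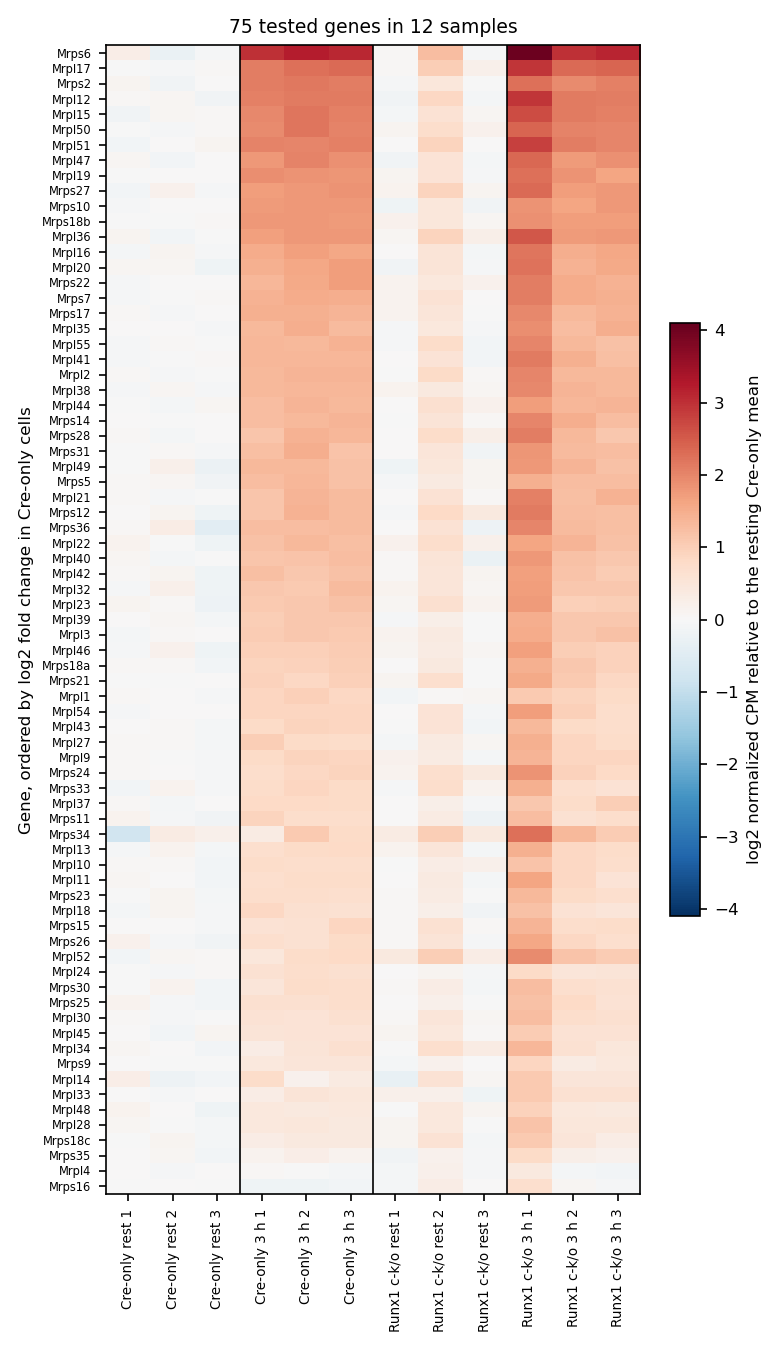
Log2 normalized CPM relative to the mean of the resting Cre-only samples (colour) for the 75 tested genes (rows, in order of their log2 fold change in Cre-only cells) in the 12 samples (columns). Both activated groups are red nearly throughout, with the exception of the lowest rows (Mrpl4 and Mrps16). Resting Runx1 c-k/o replicate 2 and 3-h Runx1 c-k/o replicate 1 are redder than their groups in nearly every row.

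Between genotypes, the second question of the design, edgeR called no mitochondrial ribosomal protein gene in all 12 samples without a RUVs factor. At rest 0 were called in either direction (edgeR), where 1.49% of all genes tested were called. At an unadjusted p under 0.05 there were 4, where 11.1% of all genes tested were, and DESeq2 called 0 (2.79% of all genes tested). At 3 h 0 were called, where 2.77% of all genes tested were, with 4 at an unadjusted p under 0.05 (16.2% of all genes tested). DESeq2 called 1, Mrpl52, and 5.24% of all genes tested. The direction was nearly one-sided: 74 of the 75 log2 fold changes were positive at rest (median 0.20, against 0.03 over all genes tested) and 72 at 3 h (median 0.22, against 0.01). This lean moved with the pair of samples that stood apart. Without them 46 of 75 were positive at rest (median 0.03, 0 called, where 4.35% of all genes tested were) and 45 at 3 h (median 0.01). In all 12 samples the lean also shrank with 1 RUVs factor, to 45 positive at rest (median 0.03) and 39 at 3 h (0.00). With the trend on exon length removed, 62 were positive at rest (median 0.12) and 66 at 3 h (0.11). Every Runx1 c-k/o sample lay above every Cre-only sample for 10 genes at rest and 8 at 3 h, where 12% and 9.5% of all genes tested did so.

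Mrpl52 (mm9, chr14:55045746-55048587, plus strand) was singled out after its values were seen. Before activation it had 17.9, 20.3 and 19.9 normalized CPM in control samples, and the Runx1 c-k/o samples had 25.4, 39.0 and 24.02. At 3 h the values were 27.02, 32.9 and 34.3 against 74.1, 43.1 and 40.2. Mrpl52 was thus among the 10 of the 75 genes in which every Runx1 c-k/o sample lay above every Cre-only sample at rest. It was also among the 8 such genes at 3 h. Of all genes tested, 12% did so at rest and 9.5% at 3 h. The log2 fold changes of 0.61 ± 0.22 at rest and 0.74 ± 0.22 at 3 h did not pass the test in all 12 samples (adjusted p = 0.35 and 0.13, edgeR). Without the pair of samples the differences were 0.36 (adjusted p = 0.0582, edgeR) and 0.44 (adjusted p = 0.00705, edgeR, where 6.65% of all genes tested were called). Mrps34 had the largest difference at 3 h (0.89, adjusted p = 0.24, edgeR), at 3.06 to 11.6 CPM.

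**Figure D4:**
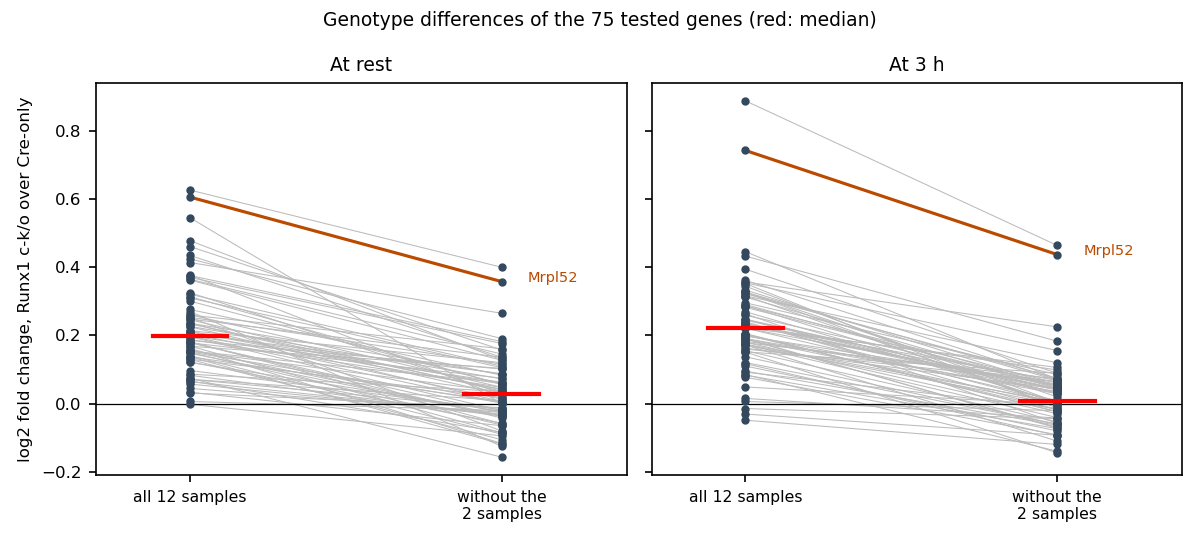
Log2 fold change, Runx1 c-k/o over Cre-only (vertical axis), of the 75 tested genes at rest and at 3 h, in all 12 samples and without the pair that stood apart. Each line joins the values of 1 gene, and red bars are medians. The medians fall from 0.20 to 0.03 at rest and from 0.22 to 0.01 at 3 h, and Mrpl52 is at 0.36 and 0.44 without the pair.

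Whether activation acted differently in the genotypes was tested by the interaction term, and 0 of the 75 genes passed (edgeR), where 0.0813% of all genes tested did. There were 0 at an unadjusted p under 0.05 as well (5.07% of all genes tested), and DESeq2 called 0 (0.613%). The differences ran from -0.27 for Mrpl50 to 0.35 for Mrps16 on the log2 scale (median 0.03). The median depends on single samples: it was 0.21 without resting Runx1 c-k/o replicate 2, -0.16 without 3-h Runx1 c-k/o replicate 1 and 0.00 without both.

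The other parts of mitochondrial translation were read from lists, which were not tested as sets. Of these lists, the genes named are those with small adjusted p-values, those that fell and a few chosen for what they do after their values were seen. Subunits of the ribosome that bear other names were all called higher in Cre-only cells, 7 of 7 with a median log2 fold change of 1.00: Gadd45gip1 (1.91), Chchd1 (1.62), Ptcd3 (1.32), Mrp63 (1.00), Ict1 (0.75), Aurkaip1 (0.74) and Dap3 (0.45). The same 7 were called in Runx1 c-k/o cells. Of the translation factors 9 of 10 were called higher in each genotype. Tufm, the elongation factor that brings tRNA to the ribosome, went from 30.4 to 114 normalized CPM in Cre-only cells (log2 fold change 1.91). Its exchange factor Tsfm (1.58) and the translocase Gfm1 (1.47) rose with it. The recycling factors Mrrf (1.83) and Gfm2 (0.30), the initiation factors Mtif3 (1.19) and Mtif2 (0.48), the release factor Mtrf1l (0.63) and the back-translocase Guf1 (0.38) were called as well, and Mtrf1 gave -0.29 (adjusted p = 0.36, edgeR).

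Assembly factors of the ribosome were called higher in 19 of 27 cases and lower in 1 in either genotype. The rRNA methyltransferases Mrm1 (2.01) and Nsun4 (1.30), the pseudouridine synthase Trub2 (2.10), the helicase Dhx30 (0.94) and Fastkd2 (1.63) rose, and the methyltransferase Mettl15 fell by 0.84. Of the mitochondrial tRNA synthetases and partners, 14 of 20 were called higher and 3 lower in Cre-only cells. Yars2 (2.04), Gatc (1.58) and Nars2 (1.52) rose, while Cars2 fell by 1.41, Fars2 by 0.81 and Qrsl1 by 0.46. Of the genes that copy, transcribe and process mitochondrial DNA and RNA, 15 of 20 were called higher and 2 lower. Peo1, the helicase Twinkle (2.09), Lrpprc (1.65) and the RNA polymerase Polrmt (0.80) rose, Polg2, the accessory subunit of the DNA polymerase, fell by 2.24, and Tfam, the packaging and transcription factor, gave -0.19 (adjusted p = 0.12, edgeR).

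Genes known to regulate mitochondrial biogenesis did not move as one. In Cre-only cells 7 of 10 were called higher and 1 lower. Pprc1, a coactivator of the PGC-1 family, rose from 68.5 to 437 normalized CPM (log2 fold change 2.67), Myc from 376 to 1014 (1.43), and the GABP subunits Gabpb1 and Gabpa by 1.14 and 0.81 on the log2 scale. Yy1 (0.32), Max (0.32) and Nrf1 (0.23) changed by small amounts that passed the test. Ppargc1a fell by 1.61 from a low level, 3.61 CPM, and Esrra (0.19) and Ppargc1b (-0.01) did not pass. In Runx1 c-k/o cells 6 were called higher and 1 lower.

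The cytosolic ribosome and the products of mitochondrial DNA gave other counts. Of 77 cytosolic ribosomal protein genes 4 were called higher and 2 lower in Cre-only cells, with a median log2 fold change of 0.04. That median turned to -0.04 with DESeq2 size factors and to -0.09 with total counts, with 2 higher and 9 lower in the latter, so no direction is given. Of 78 tested nuclear oxidative phosphorylation genes 49 were called higher and 3 lower (median 0.56). Atp5b, of the ATP synthase, rose by 1.20 and Ndufa12, of complex I, by 1.88 on the log2 scale, and Cox7a2l fell by 1.33. The 12 tested mRNAs of mitochondrial DNA had a median log2 fold change of -0.26, with 0 called higher and 5 lower, and 8 or 9 lower with DESeq2 size factors or total counts. For mt-Co1, the catalytic subunit of cytochrome oxidase, the level went from 13670 to 9770 normalized CPM, a change of -0.48 on the log2 scale (adjusted p = 0.00132, edgeR). The rRNAs of the mitochondrial ribosome gave -1.39 for mt-Rnr2 of the large subunit (called lower) and -0.36 for mt-Rnr1 of the small subunit (adjusted p = 0.12, edgeR). The libraries were made from poly(A)-selected RNA, so that the rRNA values need not follow the amount of rRNA.

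**Figure D5:**
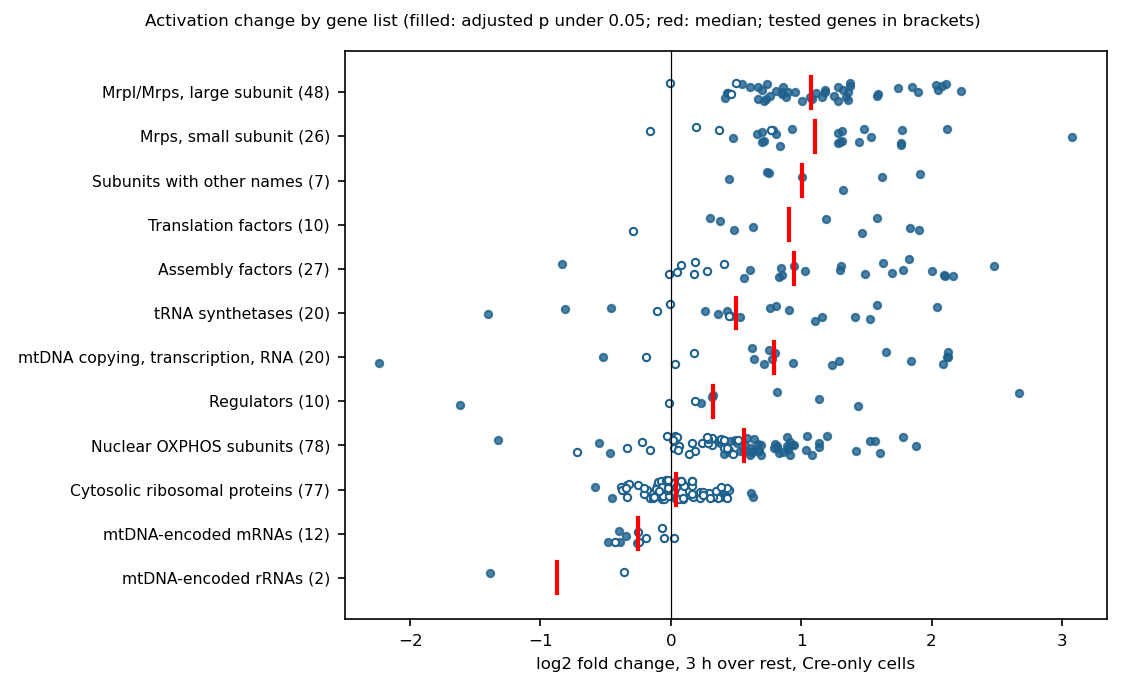
Log2 fold change, 3 h over rest, in Cre-only cells (horizontal axis) for each tested gene of 12 lists (vertical axis, number of tested genes in brackets). Filled points passed an adjusted p under 0.05 and red bars are medians. The medians of the mitochondrial ribosomal subunits are 1.08 and 1.11, those of the cytosolic ribosomal proteins 0.04 and of the mRNAs of mitochondrial DNA -0.26.

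Between genotypes, the cytosolic ribosomal protein genes leaned the same way as the mitochondrial ones, with 77 of 77 positive at rest (median 0.28) and at 3 h (median 0.38). Without the pair of samples that stood apart, 76 and 77 of 77 were still positive, with medians of 0.12 and 0.11, whereas the mitochondrial ribosomal protein genes had medians of 0.03 and 0.01. These differences between the lists were not tested.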

How the data were processed

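RNA-seq was analysed from 12 samples of mouse splenic B cells. The authors prepared stranded mRNA libraries from poly(A) RNA, aligned paired-end reads to mm9 (NCBIM37) with TopHat2 2.0.11 after CASAVA 1.8.4, counted them per Ensembl gene with featureCounts and deposited the raw counts without normalization. The strand setting and the treatment of reads with several alignments are not given in the sources used here, and the spike-in RNA was not analysed here. Totals of 14442251 to 23641552 counts put the floor of 3 counts at 0.127 to 0.208 CPM.

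Gene symbols, types and exons came from the GENCODE vM1 annotation of mm9, and promoter sequences from RefSeq on GRCm38.p6, whose coordinates were not mixed with those of mm9. In R 4.3.3, edgeR 4.0.16 kept genes by filterByExpr (minimum count 10), normalized by TMM and fitted a robust quasi-likelihood model with 1 term for each of the 4 groups to all 12 samples. Adjusted p-values are Benjamini-Hochberg values over all 13538 genes tested, with a threshold of 0.05. Standard errors of edgeR log2 fold changes are the absolute change divided by the square root of the F statistic of the test. Levels are TMM-normalized CPM, divided by the union of exons where given per kb. Tables and plots were made with Python 3.11.15, pandas 2.3.3 and matplotlib 3.10.9.

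The members, the gene lists and the naming rule were chosen with earlier results of these data known. Genes were named if they were among the 12 with the smallest adjusted p in a direction, among the 4 highest or 4 lowest levels per kb in resting Cre-only cells, untested, or on a list of genes with well-known roles. Others are named after their values were seen. Genes were put in the bacterial or the mitochondrial class by symbol number, except that Mrps24 and Mrps28 were placed in the bacterial class.

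Cre-only samples at rest and at 3 h that bear the same number deviated together from their group means (correlations over genes of 0.33, 0.24 and 0.20), but same-numbered Runx1 c-k/o samples did not (-0.37, -0.35 and 0.38), so the main model has no replicate block. The alternatives were DESeq2 size factors, total counts, no filter, at least 10 counts in every sample, the DESeq2 1.42.0 Wald test, 1 RUVs factor (the authors used DESeq2 with RUV-seq, with a number of factors not given in the sources used here), replicate blocks, fits restricted to the groups compared, leaving out single samples and removal of the trend on exon length (loess, span 0.5). A fit without both outlying Runx1 c-k/o samples was chosen after seeing the data. The edgeR and DESeq2 models were also run on simulated counts in which few genes changed, in the 3-h Cre-only samples alone. That setting is unlike the data, where most genes were called on activation, and no result given here rests on it.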

Additional observations from a re-analysis of the deposited data

How the results depend on the processing

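The median change on activation was positive under every alternative, and the 1 RUVs factor moved it most. With it, 38 genes were called higher and 6 lower in Cre-only cells (median log2 fold change 0.35), and Runx1 c-k/o cells had 36 and 6 (0.30). Of the 75 genes 54 had a positive change in Cre-only cells with this factor, against 73 without it, and 53 in Runx1 c-k/o cells, against 75. Of the genes named by the rule, it turned in Cre-only cells Mrpl11 (-0.24), Mrpl52 (-0.35), Mrpl54 (-0.13), Mrps18c (-0.51), Mrps30 (-0.044) and Mrps34 (-0.47). Of the genes so named, those that turned in Runx1 c-k/o cells were Mrpl11 (-0.12), Mrpl23 (-0.046), Mrpl4 (-0.53), Mrpl45 (-0.038), Mrpl52 (-0.29), Mrpl54 (-0.088), Mrps16 (-0.63), Mrps18c (-0.51) and Mrps34 (-0.33). The values of the factor differ between resting and activated samples, and the cause of the turns was not tested. The Cre-only median was 1.00 with DESeq2 size factors and with the DESeq2 Wald test, 0.96 with total counts, 0.93 with at least 10 counts in every sample and 1.01 with only the groups compared. Total counts moved the median of all genes from 0.03 to -0.10 for activation of Cre-only cells and from 0.00 to -0.11 for that of Runx1 c-k/o cells. Only the groups compared, and the fit without both outlying samples, each called 1 gene lower in Cre-only cells, Mrps16. Between genotypes 1 gene, Mrpl52, was called higher at rest with the RUVs factor, where 1.86% of all genes tested were called higher. At 3 h Mrpl52 was called higher with the RUVs factor, the DESeq2 Wald test and the fit without both outlying samples. Those fits called 2.96%, 3.12% and 4.11% of all genes tested higher at 3 h, in this order.

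Mrpl4, near 0, changed sign often: in Runx1 c-k/o cells it was -0.069 with total counts, -0.045 with at least 10 counts in every sample and -0.048 without both outlying samples. With 1 sample left out it ran from -0.034 to 0.037 in Cre-only cells and, for Runx1 c-k/o cells, from -0.13 to 0.16, and Mrps16 ran from -0.087 to 0.35 in the latter, with the lowest value of both genes without 3-h Runx1 c-k/o replicate 1. Leaving out 1 sample gave 65 to 67 genes higher in Cre-only cells (median 1.05 to 1.13), where 35.7% to 36.2% of all genes tested were called higher. For Runx1 c-k/o cells it gave 65 to 73 (0.85 to 1.23), where 34.6% to 37.5% of all genes tested were. It gave medians of 0.02 to 0.29 at rest and 0.01 to 0.34 at 3 h between genotypes, and -0.16 to 0.21 for the interaction. Without resting Runx1 c-k/o replicate 2 the genotype median at rest was 0.02, with 44 of 75 genes positive, and without 3-h Runx1 c-k/o replicate 1 that at 3 h was 0.01, with 45 positive. A replicate block across groups gave 68 and 70 genes higher (38.1% and 36.9% of all genes tested). A replicate block within genotype, which pairs resting and activated samples, gave 67 and 67 (36.8% and 35.6%). It called Mrps34 in Cre-only cells (0.81, adjusted p = 0.048, edgeR) and changed no count by more than 1.5 times. Removal of the trend on exon length gave medians of 1.06 and 1.10 for activation. Among the tested genes, Mrps34 (29 to 180 counts per sample) and Mrps6 (32 to 548) had the lowest minimum counts.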

Other observations

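Promoters shared with a neighbour were counted over the tested protein-coding genes. Of the 75 tested mitochondrial ribosomal protein genes, 16 (21.3%) start within 1000 bases of a gene that is transcribed the other way, against 1337 of 11935 protein-coding genes tested (11.2%). This is a description, with no test. The members of these pairs did not always change in one direction. Mrpl50 and the zinc finger gene Zfp189, 83 bases apart, had log2 fold changes on activation in Cre-only cells of 2.05 and 1.84, and Mrps5 and Zfp661, 128 bases apart, had 1.28 and 1.36. Mrpl32 and the proteasome gene Psma2, 217 bases apart, had 1.16 and 0.79. Mrpl51 (2.03) is 206 bases from Ncapd2, a condensin gene, which fell by 0.93, and Mrpl49 (1.29) is 135 bases from Fau, which codes for a fusion with the cytosolic ribosomal protein S30 and fell by 0.57. Mrps18b (1.76) is 45 bases from Ppp1r10 (0.25, called higher), and Mrps18c (0.37, not called) is 27 bases from Helq, a helicase gene, which fell by 0.81. These pairs were picked after their values were seen.

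Lars2, the mitochondrial leucyl-tRNA synthetase gene on the list of tRNA synthetases, had 1900 normalized CPM in 3-h Runx1 c-k/o replicate 2 and 80.0 to 157 in the other 11 samples. Its call as higher on activation of Runx1 c-k/o cells (log2 fold change 2.91, adjusted p = 0.0105, edgeR) rests on that sample.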
